A study of Mus musculus with 75 samples.

Results

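The 8 genes described here encode cytokines and receptor subunits of the interleukin-6 (IL-6) family: the ligands Il6, Lif, Il11 and Clcf1, the shared signal-transducing subunit gp130 (gene Il6st), and the receptor subunits encoded by Osmr, Lifr and Il6ra. They were chosen by name, not by a measured value, but with earlier results of these data known. The deposited tables held 45706 gene entries, and all 8 members had enough reads to be tested among 13665 genes. The RNA came from primary mouse embryonic fibroblasts of strain C57BL/6 that lacked p53, c-Rel and RelA, in every group including the controls. RelA is the NF-kB subunit that carries the transactivation domains named TA1 and TA2 in its C-terminal part. The cells then carried a pBABE-puro retrovirus that was either empty (EV) or encoded the wild-type protein (RelA-WT) or a mutant of it. After a night in 0.5% bovine calf serum, cells received tumor necrosis factor (TNF, 10 ng/ml), and RNA was taken before it (0 h) and after 0.5, 1, 3 and 8 h. The replicated constructs were RelA-WT, EV, RelA-dTAD (by its name without the transactivation domains) and RelA-dTA1 (by its name without TA1), with 2 libraries per time, 1 in each of 2 deposited sets. The others had 1 library per time. These were RelA-DB and RelA-dCterm in set 1, RelA-TA2_S467A, RelA-TA2_CI and its S467A form RelA-TA2_CI_S467A in set 2, and, also in set 2, a pair that lacked TA1 by name as well, RelA-TA2_CI_S467A-dTA1 and RelA-TA2_CI-dTA1. Whether the lines are clones, and whether both libraries of a group grew from different cultures, is not labelled, so each p-value rests on the library-to-library spread alone, which may be technical. Later times have no untreated cells beside them, and a response to TNF therefore includes any change with time alone.

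IL-6 family cytokines signal through gp130, which pairs with itself or with a second subunit and activates Janus kinases and the transcription factor STAT3. IL-6 first binds the IL-6 receptor, LIF and CLCF1 use the LIF receptor, and the oncostatin M receptor pairs with gp130 for oncostatin M. Fibroblasts are known to secrete IL-6 and LIF after TNF, and Il6 is a textbook NF-kB target gene.

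The upstream sequences of Il6 and Lif, the members that responded first, and of Lifr, a receptor member that responded late, are shown as the 250 bases before the RefSeq start (GRCm38.p6, 5′ to 3′ on the gene's strand), with matches to the motifs kB (GGG, any 5 bases, then CC), AP-1 (TGANTCA) and C/EBP (TTNNGNAA) on either strand in capitals. Neighbouring or overlapping matches run together in capitals.
Il6, chr5:30012864-30013113, plus strand: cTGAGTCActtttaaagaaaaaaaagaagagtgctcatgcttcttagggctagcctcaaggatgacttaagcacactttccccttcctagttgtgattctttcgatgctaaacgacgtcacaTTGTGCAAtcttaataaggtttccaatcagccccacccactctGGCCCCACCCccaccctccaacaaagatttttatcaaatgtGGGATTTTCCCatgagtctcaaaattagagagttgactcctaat
Lif, chr11:4257318-4257567, plus strand: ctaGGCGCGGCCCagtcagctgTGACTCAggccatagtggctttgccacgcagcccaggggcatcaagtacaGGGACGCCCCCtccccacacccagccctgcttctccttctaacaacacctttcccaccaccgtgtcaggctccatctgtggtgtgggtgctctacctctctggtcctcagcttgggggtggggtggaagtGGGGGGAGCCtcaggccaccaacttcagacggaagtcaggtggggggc
Lifr, first RefSeq start, chr15:7129322-7129571, plus strand: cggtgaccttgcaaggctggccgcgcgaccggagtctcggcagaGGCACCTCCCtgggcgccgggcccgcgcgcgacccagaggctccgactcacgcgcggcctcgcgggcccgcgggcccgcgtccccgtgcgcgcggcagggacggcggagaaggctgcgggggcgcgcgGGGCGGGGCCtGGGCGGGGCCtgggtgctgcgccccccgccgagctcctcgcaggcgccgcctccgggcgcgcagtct
The Il6 stretch held the kB match GGGATTTTCC with its first base 44 bases before the start, the C/EBP match TTGTGCAA at 128 and the AP-1 match TGAGTCA at 249. Lif had kB matches and the AP-1 match TGACTCA at 228, while Lifr had kB matches only. A sequence was on file for 7 of the 8 members. Among the other members, kB matches stood at the starts of Il6ra, Osmr and Il6st and at the first start of Il11, whose second start held an AP-1 match (TGAGTCA) and no kB match. Il6ra also had C/EBP matches, TTTCGTAA at 116 and TTCCTCAA at 70 bases before its start. Osmr had an AP-1 match (TGATTCA) just after its start. The CRE (TGACGTCA) and STAT (TTCNNNGAA) letters were in none of these windows. In all 32851 RefSeq windows of this size, from 250 bases before to 50 after the start, 50.8% held a kB match, 40.7% a C/EBP match, 7.81% an AP-1 match, 8.3% a STAT match and 1.79% a CRE match, so the kB letters alone are common.

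Depth was lower in set 1, with 4422396 to 6915919 reads assigned to genes per library, than in set 2, with 10440202 to 22908738. Rela, the gene put back, stood at 16.2 ± 0.821 CPM (reads of a gene scaled to a common library total; mean ± SD, n = 2) in EV before TNF, at 1311 ± 229.3 in RelA-WT, 1149 ± 428 in RelA-dTA1 and 1458 ± 477 in RelA-dTAD. By 8 h it was at 5267 ± 1961 in RelA-dTAD and 1627 ± 205 in RelA-WT. Fibroblast markers were present, all 10 of 10 at a median of 1 CPM or more, with a summed level of 33940 to 51260 CPM. Of 8 macrophage markers only Cd68 reached that median, and their summed level was 1.82 to 6.21 CPM. The summed markers were at 30.4 to 59.6 CPM for endothelial, 21.9 to 52.2 for neural, 1.53 to 5.86 for epithelial and 0.184 to 7.87 for muscle cells. In bulk RNA, fewer cells of a type and less RNA per cell cannot be told apart.

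Before TNF the receptor genes Il6st, Osmr and Lifr were expressed above the 4 ligand genes and Il6ra. Per exon length, in RPKM (CPM per kilobase of exon), Il6st was at 71.9 ± 1.87 in RelA-WT (mean ± SD, n = 2), Osmr at 10.7 ± 0.264, Lifr at 7.55 ± 1.35 and Clcf1 at 4.06 ± 0.812. Lif was at 0.912 ± 0.268, Il6ra at 0.895 ± 0.302, Il11 at 0.389 ± 0.299 and Il6 at 0.115 ± 0.117. In that order Lif and Il6ra overlapped between libraries, as did Il11 and Il6, and the other 5 pairs of neighbours did not. Il6 at 0 h rested on 0 to 10 reads per library. None of the 8 members differed between constructs before TNF (edgeR's quasi-likelihood test, Benjamini-Hochberg adjusted p under 0.05, as in all tests here) in EV against RelA-WT, RelA-dTAD against RelA-WT, RelA-dTA1 against RelA-WT or RelA-dTAD against EV. In the 4 comparisons in turn, 0.563%, 0.0293%, 0% and 0.00732% of all genes were lower and 0%, 0%, 0% and 0.637% higher. At an unadjusted p, 1 member test of 32 was lower and 0 were higher, and DESeq2 called 0.

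**Figure D1:**
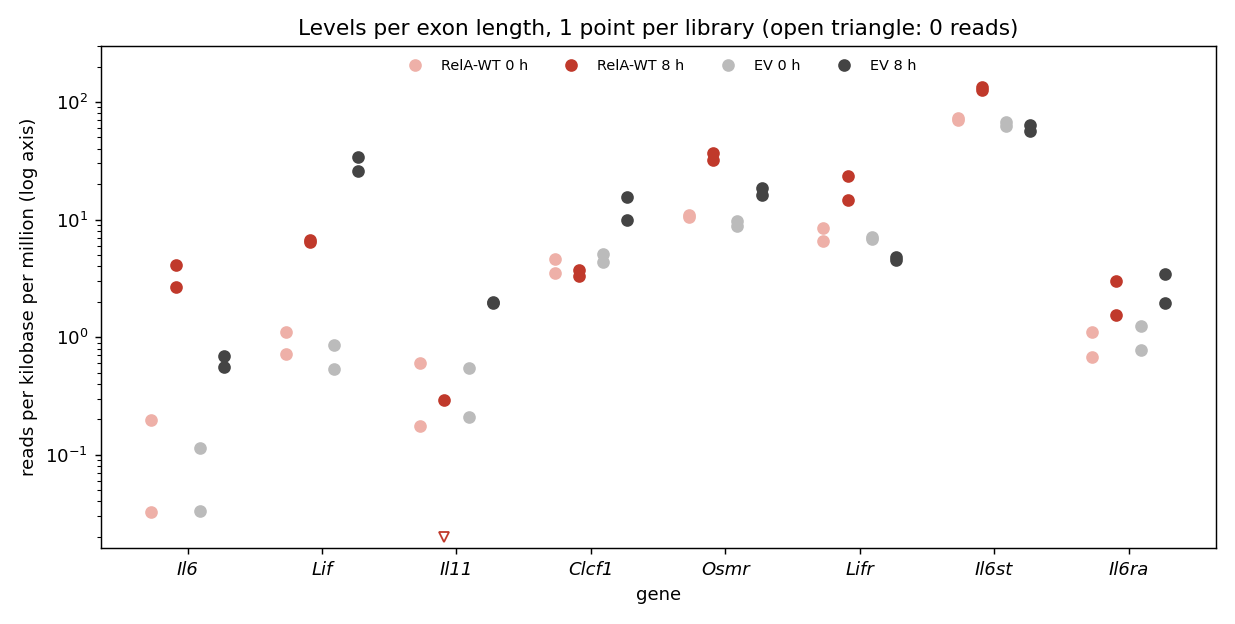
Levels of the 8 genes in RPKM (log axis), 1 point per library, in RelA-WT and EV at 0 and 8 h. The open triangle marks the RelA-WT library of set 1 with 0 reads of Il11 at 8 h. Il6st is the highest gene at 0 h in both constructs, and Lif has the widest gap between 0 and 8 h in EV.

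After TNF members were called higher, and none was called lower except Lifr in EV at 8 h in alternative fits. In RelA-WT, 2 of 8 were called higher at 0.5 h (Il6 and Lif, against 0.776% of all genes), 3 at 1 h (also Clcf1, against 2.55%), 4 at 3 h (Il6, Lif, Osmr and Il6st, against 10.5%) and 6 at 8 h (all but Il11 and Clcf1, against 15.8%). RelA-dTA1 gave 2 at 0.5 h (0.615% of all genes), 2 at 1 h (1.41%), 4 at 3 h (9.58%) and 5 at 8 h (19.4%). In RelA-dTAD the counts were 1 at 0.5 h (Il6, against 0.439%), 1 at 1 h (Lif, against 0.534%), 3 at 3 h (2.28%) and 6 at 8 h (24.4%). EV had 0 at 0.5 h (0.402%), 0 at 1 h (0.768%), 2 at 3 h (Lif and Osmr, against 3.02%) and 6 at 8 h (Il6, Lif, Il11, Clcf1, Osmr and Il6ra, against 25.6%). In EV, 2 members were higher at an unadjusted p at 0.5 h and 2 at 1 h, and DESeq2 called 0 at both times. Of 128 tests for lower levels 0 passed, 0 did at an unadjusted p, and DESeq2 gave 0, but a fit with the deposited set as a block gave 1, Lifr in EV at 8 h, as did a fit without a filter on low counts. Of all genes, the shares called lower at 0.5, 1, 3 and 8 h were 0%, 0.0585%, 0.922% and 23.1% in EV, 0.0366%, 0.695%, 5.74% and 11.6% in RelA-WT, 0.0146%, 0.212%, 4.87% and 15.3% in RelA-dTA1 and 0%, 0.0146%, 0.629% and 22.5% in RelA-dTAD.

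**Figure D2:**
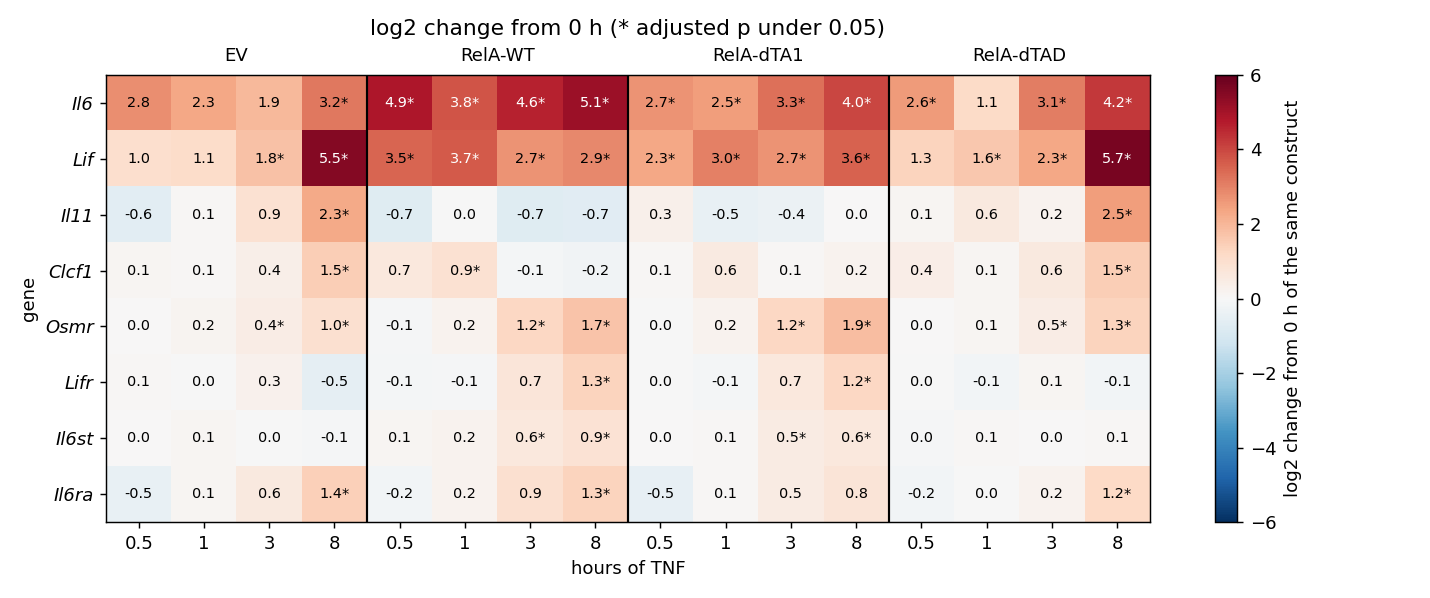
Log2 change from 0 h of the same construct for each gene (rows) and each construct and hour of TNF (columns), with an asterisk where the adjusted p is under 0.05. Il6 and Lif change within 0.5 h in RelA-WT, Osmr and Il6st are called from 3 h and Lifr at 8 h in that construct, and Lif has its highest values in EV and RelA-dTAD at 8 h.

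Il6, which encodes the founding cytokine of the family (ENSMUSG00000025746.9, mm10 chr5:30013114-30019981, plus strand), had its highest mean in RelA-WT at every time after TNF and its lowest in EV at 0.5, 3 and 8 h. In RelA-WT, Il6 stood at 0.479, 7.17, 4.39, 7.02 and 9.93 CPM at 0, 0.5, 1, 3 and 8 h in set 1 and at 0.0785, 6.24, 2.19, 4.49 and 6.49 in set 2. In EV the values in the same order were 0.277, 0.652, 0.782, 0.718 and 1.67 in set 1 and 0.0803, 1.39, 0.835, 0.563 and 1.34 in set 2. The RelA-WT and EV libraries did not overlap at any time after TNF, whereas at 0 h they did. In RelA-dTA1 the values were 0.278, 1.72, 3.53, 3.3 and 7.47 in set 1 and 0.499, 3.48, 1.83, 5.07 and 6.91 in set 2, and in RelA-dTAD 0.462, 1.66, 0.816, 3.4 and 6.11 and 0.26, 2.11, 0.674, 2.42 and 6.13. The course in RelA-WT had a first high at 0.5 h, a dip at 1 h and a second high at 8 h in both sets. A dip at 1 h also stood in both RelA-dTAD libraries, on 11 and then 5 reads in set 1. It stood as well in the set 2 library of RelA-dTA1, in RelA-dCterm and in every set 2 construct with 1 library. It was absent from RelA-DB and the set 1 libraries of EV and RelA-dTA1, and in EV of set 2 Il6 fell on to 3 h. No test compared 1 h with 0.5 h. Over both libraries of RelA-WT, 4 reads at 0 h became 123 at 0.5 h, a ratio of 30.1 (95% interval 11.5 to 112.2, exact conditional binomial, counting error only), and 133 at 8 h, a ratio of 32.4 (12.4 to 120.6). EV went from 3 reads to 26 at 0.5 h, a ratio of 7.66 (2.35 to 39.6), and to 20 at 8 h, a ratio of 8.3 (2.46 to 43.6).

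The fitted log2 change of Il6 (± SE) in RelA-WT was 4.87 ± 0.58 (adjusted p = 4.91e-06) at 0.5 h and 5.13 ± 0.57 (adjusted p = 3.24e-07) at 8 h. No library at 0 h held more than 0.4995 CPM of Il6. It thus passed the filter on low counts largely through libraries taken after TNF, the groups tested here for a rise. Where a construct's library of 1 set is left out here and in what follows, its libraries of that set at all 5 times are left out. With so few reads at 0 h, the values at 0.5 and 8 h were 6.12 and 6.18 without the set 1 library of RelA-WT and 3.88 and 4.35 without that of set 2. In RelA-dTA1 it rose at all 4 times, from 2.68 ± 0.51 (adjusted p = 0.005) at 0.5 h to 4.02 ± 0.48 (adjusted p = 6.48e-07) at 8 h, although the calls at 0.5 and 1 h were lost without either of its libraries (adjusted p from 0.054 to 1) and the 8 h value was 4.71 without its set 2 library. In RelA-dTAD it rose by 2.56 ± 0.56 (adjusted p = 0.0318) at 0.5 h, 3.09 ± 0.55 (adjusted p = 0.00147) at 3 h and 4.23 ± 0.52 (adjusted p = 4.48e-07) at 8 h. The first of these was lost without either library of RelA-dTAD or of EV (0.0753 to 1), and the second without either library of RelA-dTAD (0.0837 and 0.259). In EV only the 8 h change passed, 3.19 ± 0.74 (adjusted p = 9.61e-04), with values of 3.91 without the set 1 library of EV and 2.56 (adjusted p = 0.0818) without that of set 2.

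The difference of the Il6 responses between constructs did not pass at any time, for example -1.95 ± 1.23 (adjusted p = 0.316) for EV minus RelA-WT at 8 h. A test of the levels themselves, added after the data were seen, found lower Il6 in EV than in RelA-WT, with log2 differences of -2.57 ± 0.43 (adjusted p = 0.00106) at 0.5 h, -3.18 ± 0.5 (adjusted p = 5.41e-05) at 3 h and -2.42 ± 0.45 (adjusted p = 1.66e-04) at 8 h. At those times 1.08%, 8.14% and 15.2% of all genes were lower in EV by the same test, and the 0.5 h value was -2.26 (adjusted p = 0.0623) without the set 1 library of EV and -3.33 (0.0408) without that of set 2. At 1 h the difference, -1.92 ± 0.51 (adjusted p = 0.0323), beside 2.96% of genes, was lost without either library of EV or RelA-dTAD or the set 1 library of RelA-WT (0.0747 to 0.366). Il6 was also lower in RelA-dTAD than in RelA-WT at 1 h, -2.09 ± 0.49 (adjusted p = 0.0186), where 1.82% of genes were lower. The difference at 0.5 h, -1.77 ± 0.4 (adjusted p = 0.0495), beside 0.366% of genes, was lost when any 1 of the 8 series of libraries was left out (0.0551 to 0.849). At 3 h it was -1.0 ± 0.4 (adjusted p = 0.167), and 0.0255 in the blocked fit. The 1 h call was lost without the set 1 library of RelA-WT (0.242) or either of RelA-dTAD (0.137 and 0.541). By 8 h RelA-dTAD stood at -0.37 ± 0.37 (adjusted p = 0.533) against RelA-WT and RelA-dTA1 at -0.16 ± 0.37 (adjusted p = 1), both within their error. Between RelA-dTA1 and RelA-dTAD no level of Il6 was called, with 1.78 ± 0.5 (adjusted p = 0.19) at 1 h, which passed with the block (0.0493) and without a filter on low counts (0.031).

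**Figure D3:**
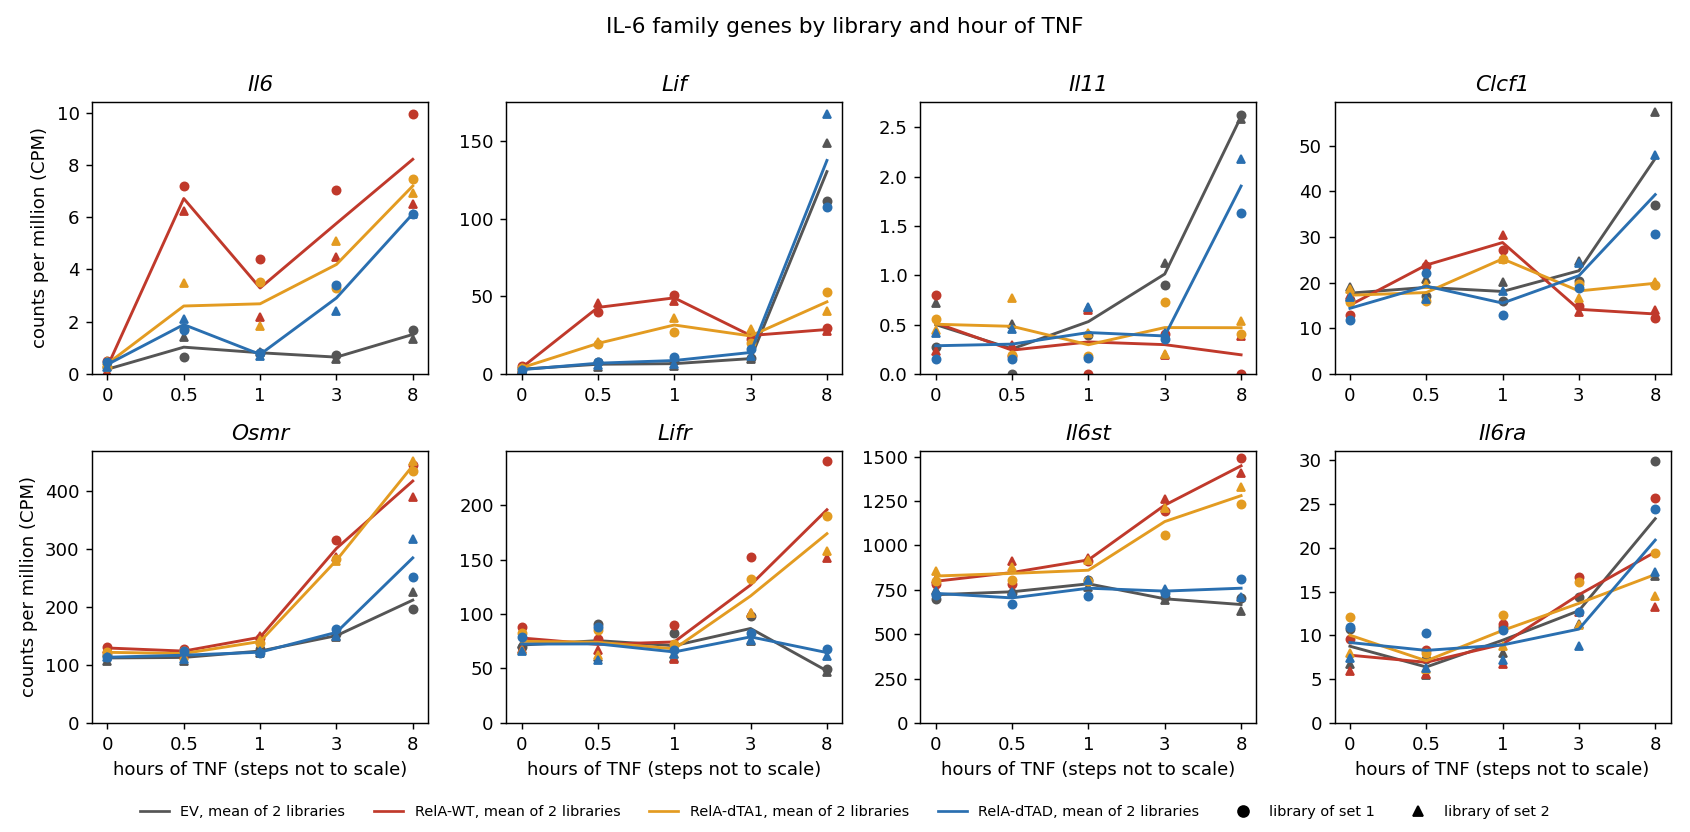
CPM of each gene against hours of TNF in RelA-WT, EV, RelA-dTAD and RelA-dTA1, with a point per library (circles set 1, triangles set 2) and a line through the mean of 2 libraries. Lif is at 39.9 to 51.1 CPM in RelA-WT at 0.5 and 1 h and at 108.0 to 167.5 CPM in EV and RelA-dTAD at 8 h, and Il6st and Lifr rise in RelA-WT and RelA-dTA1.

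Lif, which encodes leukemia inhibitory factor (ENSMUSG00000034394.12, mm10 chr11:4257557-4272514, plus strand), had an early course with RelA-WT and a late, higher one with EV and RelA-dTAD. In RelA-WT it stood at 4.79, 39.9, 51.1, 22.7 and 29.4 CPM at 0, 0.5, 1, 3 and 8 h in set 1 and at 3.14, 45.9, 47.0, 26.9 and 27.9 in set 2. In EV it stood at 3.73, 7.82, 8.02, 10.1 and 111.8 in set 1 and 2.33, 4.62, 5.18, 9.65 and 149.3 in set 2, and in RelA-dTAD at 2.77, 7.87, 10.6, 15.9 and 108.0 and 2.65, 5.92, 6.63, 11.7 and 167.5. The order of the constructs thus turned over between 1 and 8 h, with no overlap between RelA-WT libraries and those of EV or RelA-dTAD at 0.5, 1 or 8 h. RelA-dTA1 lay between them at these times, at 4.04, 19.1, 27.2, 19.8 and 52.7 in set 1 and 3.85, 20.3, 35.9, 29.2 and 40.3 in set 2.

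Lif rose in RelA-WT by 3.51 ± 0.31 (adjusted p = 3.48e-08) at 0.5 h, 3.69 ± 0.31 (adjusted p = 9.12e-09) at 1 h and 2.91 ± 0.32 (adjusted p = 1.87e-07) at 8 h. In RelA-dTA1 the changes were 2.34 ± 0.3 (adjusted p = 2.83e-05) at 0.5 h and 3.56 ± 0.3 (adjusted p = 3.22e-09) at 8 h. Late values were larger in the other constructs, 5.52 ± 0.33 (adjusted p = 2.82e-12) in EV (4.92 without its set 2 library) and 5.7 ± 0.32 (adjusted p = 2.73e-12) in RelA-dTAD at 8 h. In RelA-dTA1 the 0.5 h call was lost without its set 2 library (adjusted p = 0.0573), and in EV the 3 h call, 1.76 ± 0.34 (adjusted p = 0.00334), without its set 2 library (0.22). In RelA-dTAD the 1 h call, 1.61 ± 0.34 (adjusted p = 0.0174), was lost with the set as a block (blocked adjusted p = 0.0696) and without any 1 library of RelA-WT or RelA-dTAD (0.0545 to 0.794).

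The responses of Lif differed between constructs in both directions. EV responded less than RelA-WT at 0.5 h, -2.49 ± 0.48 (adjusted p = 0.0375), and at 1 h, -2.57 ± 0.49 (adjusted p = 0.00633), where 0.0805% and 0.578% of all genes responded less and 0% and 0.022% more. At 8 h EV responded more, 2.62 ± 0.46 (adjusted p = 2.24e-04), as did 9.67% of genes, with 1.99 (adjusted p = 0.0172) without the set 2 library of EV. The 0.5 h difference was lost with the block (0.27) and without any 1 library of EV, RelA-WT or RelA-dTA1 (0.0769 to 1), and the 1 h difference without any 1 of EV or RelA-WT (0.0568 to 0.304). RelA-dTAD differed from RelA-WT by -2.08 ± 0.47 (adjusted p = 0.0316) at 1 h, against 0.6% of genes lower, and by 2.79 ± 0.45 (adjusted p = 1.63e-04) at 8 h, against 6.45% higher. Its 1 h difference was lost with the block (0.084) and without either library of RelA-WT or RelA-dTA1 or the set 2 library of RelA-dTAD (0.052 to 0.88). RelA-dTA1 responded less than RelA-dTAD at 8 h, -2.14 ± 0.43 (adjusted p = 0.00302), against 2.81% of genes, a call lost without the set 2 library of RelA-dTA1 (0.125) or of RelA-dTAD (0.0876). These comparisons share their RelA-WT or RelA-dTAD libraries.

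Clcf1, which encodes cardiotrophin-like cytokine factor 1 (ENSMUSG00000040663.8, mm10 chr19:4214238-4223490, plus strand), moved in the same late constructs as Lif, with smaller changes. At 8 h it was at 37.0 and 57.4 CPM in the EV libraries of sets 1 and 2 and at 30.6 and 48.1 in those of RelA-dTAD, but at 12.4 and 13.9 in RelA-WT and 19.6 and 20.1 in RelA-dTA1. The EV and RelA-dTAD libraries lay above all of those of RelA-WT and RelA-dTA1. Its log2 change at 8 h was 1.46 ± 0.23 (adjusted p = 1.08e-05) in EV and 1.46 ± 0.23 (adjusted p = 1.24e-05) in RelA-dTAD, against -0.21 ± 0.24 in RelA-WT (adjusted p = 0.578). Both responses differed from that of RelA-WT, by 1.67 ± 0.33 (adjusted p = 8.69e-04) for EV and 1.67 ± 0.33 (adjusted p = 0.0013) for RelA-dTAD, and both calls were lost without the set 2 library of RelA-WT (0.0605 and 0.0804). RelA-dTA1 minus RelA-dTAD was -1.26 ± 0.32 (adjusted p = 0.0185), lost without either library of RelA-dTA1 (0.0757 and 0.337) or the set 2 library of RelA-dTAD (0.0669). In RelA-WT there was instead an early rise, from 12.9 and 17.2 CPM at 0 h to 27.1 and 30.5 at 1 h, 0.93 ± 0.23 (adjusted p = 0.0207), lost without either RelA-WT library (0.361 and 0.559). In RelA-dTAD the change at 3 h was 0.58 ± 0.23 (adjusted p = 0.219), and 0.0249 in the blocked fit.

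Il11, which encodes interleukin 11 (ENSMUSG00000004371.12, mm10 chr7:4773055-4782857, minus strand), had 0 to 33 reads per library. Its highest values over all constructs were 0.799, 0.773 and 0.732 CPM at 0, 0.5 and 1 h. It thus passed the filter on low counts largely through EV and RelA-dTAD at 8 h, the groups tested below for a rise. EV held 2.63 and 2.59 CPM at 8 h from 0.277 and 0.722 at 0 h, and RelA-dTAD 1.63 and 2.18 from 0.154 and 0.416. RelA-WT at 8 h had 0 and 5 reads, where 0 allows up to 3. The EV and RelA-dTAD libraries at 8 h lay above all 8 libraries of RelA-WT and RelA-dTA1 at 0 and 8 h. Over both libraries the ratio of 8 h to 0 h was 4.07 in EV (95% interval 2.03 to 8.87) and 5.06 in RelA-dTAD (2.42 to 11.8), but 0.609 in RelA-WT (0.157 to 2.11) and 0.938 in RelA-dTA1 (0.391 to 2.23). The fitted rise was 2.27 ± 0.69 (adjusted p = 0.00837) in EV and 2.52 ± 0.71 (adjusted p = 0.00535) in RelA-dTAD. It was lost without the set 1 library of EV (0.124) and without either of RelA-dTAD (0.0515 and 0.107), and in EV it was 3.21 (0.0492) without the set 2 library. The difference of responses from RelA-WT did not pass (adjusted p = 0.103 for EV and 0.0984 for RelA-dTAD), but did with the block (0.0376 and 0.0271), as did RelA-dTA1 minus RelA-dTAD (0.0466 against 0.216). That of EV also passed without the set 2 library of RelA-WT, at 8.28 (0.0451). The added test of levels at 8 h gave 3.25 ± 0.8 (adjusted p = 0.00255) for EV minus RelA-WT, 2.85 ± 0.8 (adjusted p = 0.00988) for RelA-dTAD minus RelA-WT and -1.99 ± 0.69 (adjusted p = 0.0474) for RelA-dTA1 minus RelA-dTAD, beside 17.2%, 13.2% and 9.24% of all genes called in the same direction. The fitted sizes rest on the RelA-WT library with 0 reads and reached 7.72 and 7.33 for the former pair without the other RelA-WT library. RelA-dTAD minus RelA-WT was lost without the set 1 library of RelA-WT (0.0555) or the set 2 library of RelA-dTAD (0.109). The third was lost without any 1 library of EV, RelA-dTA1 or RelA-dTAD (0.058 to 0.315) and with DESeq2 (0.142).

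Osmr, which encodes the oncostatin M receptor (ENSMUSG00000022146.10, mm10 chr15:6813577-6874969, minus strand), rose in all 4 constructs from 3 h on, and most with RelA-WT and RelA-dTA1. At 3 h it was at 315.9 and 286.9 CPM in RelA-WT (sets 1 and 2) and 282.6 and 279.1 in RelA-dTA1, but at 152.8 and 148.7 in EV and 163.0 and 150.0 in RelA-dTAD. At 8 h RelA-WT held 445.6 and 389.9, RelA-dTA1 435.7 and 452.9, RelA-dTAD 252.3 and 317.8 and EV 197.3 and 226.9. The libraries of RelA-WT and RelA-dTA1 lay above all those of EV and RelA-dTAD at both times. Its log2 rise at 8 h was 1.69 ± 0.1 (adjusted p = 7.00e-12) in RelA-WT, 1.87 ± 0.1 (adjusted p = 1.12e-12) in RelA-dTA1, 1.35 ± 0.1 (adjusted p = 1.07e-10) in RelA-dTAD and 0.96 ± 0.1 (adjusted p = 1.52e-08) in EV. At 3 h the rises in EV, 0.43 ± 0.1 (adjusted p = 0.00939), and in RelA-dTAD, 0.47 ± 0.1 (adjusted p = 0.00593), were each lost without either of their own libraries (0.176 and 0.267 for EV, 0.265 and 0.0887 for RelA-dTAD).

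EV responded less than RelA-WT in Osmr at 3 h, -0.79 ± 0.14 (adjusted p = 5.16e-04), and at 8 h, -0.73 ± 0.14 (adjusted p = 3.70e-04), where 2.8% and 7.9% of all genes responded less. RelA-dTAD responded less at 3 h, -0.76 ± 0.14 (adjusted p = 0.00107), against 2.5% of genes, while at 8 h the difference was -0.34 ± 0.13 (adjusted p = 0.105), with 0.032 in the blocked fit and -0.54 (0.0397) without the set 2 library of RelA-dTAD. RelA-dTA1 responded more than RelA-dTAD at 3 h, 0.75 ± 0.13 (adjusted p = 0.00226), and at 8 h, 0.52 ± 0.13 (adjusted p = 0.0182), where 1.35% and 3.13% of genes responded more. The 3 h call was lost without either library of RelA-dTA1 or the set 2 library of RelA-dTAD (0.0634 to 0.127). At 8 h it was lost without either of RelA-dTA1 or the set 1 library of RelA-dTAD (0.108 to 0.312), and when all genes were kept without a filter on low counts (0.0763).

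Il6st and Lifr, the gp130 and LIF receptor genes (ENSMUSG00000021756.10, mm10 chr13:112464070-112510086, plus strand, and ENSMUSG00000054263.9, chr15:7129559-7197489, plus strand), rose with RelA-WT and RelA-dTA1 and were not called higher with EV or RelA-dTAD. In RelA-WT, Il6st stood at 783.6, 784.8, 910.7, 1193 and 1491 CPM at 0, 0.5, 1, 3 and 8 h in set 1 and at 813.0, 910.4, 926.7, 1261 and 1406 in set 2. In EV it stood at 697.3, 733.7, 803.2, 708.7 and 704.7 in set 1 and 747.6, 744.4, 764.4, 690.4 and 629.7 in set 2. RelA-dTA1 had 1234 and 1327 at 8 h and RelA-dTAD 809.7 and 708.6. At 3 and 8 h every library of RelA-WT and RelA-dTA1 lay above every library of EV and RelA-dTAD.

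The rise of Il6st was 0.63 ± 0.09 (adjusted p = 2.27e-05) at 3 h and 0.86 ± 0.09 (adjusted p = 2.00e-07) at 8 h in RelA-WT, and 0.47 ± 0.09 (adjusted p = 7.94e-04) and 0.64 ± 0.09 (adjusted p = 9.59e-06) in RelA-dTA1, whose 3 h call was lost without its set 2 library (0.0609). At 8 h the change in EV was -0.08 ± 0.09 (adjusted p = 0.515) and in RelA-dTAD 0.08 ± 0.09 (adjusted p = 0.53). Both constructs responded less than RelA-WT. For EV the difference was -0.66 ± 0.13 (adjusted p = 0.00247) at 3 h and -0.94 ± 0.13 (adjusted p = 1.64e-05) at 8 h, and for RelA-dTAD it was -0.6 ± 0.13 (adjusted p = 0.00854) and -0.78 ± 0.13 (adjusted p = 2.22e-04), the latter beside 5.8% of genes lower. At 3 h the calls were lost without the set 2 library of EV (0.0936) and, for RelA-dTAD, without any 1 library of RelA-WT or RelA-dTAD (0.0739 to 0.103). RelA-dTA1 responded more than RelA-dTAD at 8 h, 0.56 ± 0.13 (adjusted p = 0.00955), lost without the set 2 library of RelA-dTA1 (0.0828) or of RelA-dTAD (0.138). At 3 h that difference was 0.44 ± 0.13 (adjusted p = 0.118), and 0.00913 in the blocked fit.

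Lifr was called in RelA-WT and RelA-dTA1 at 8 h, and its value in EV was below 0. In RelA-WT it stood at 87.8, 77.3, 89.6, 152.5 and 240.2 CPM at 0, 0.5, 1, 3 and 8 h in set 1 and at 68.2, 66.9, 59.1, 100.8 and 151.1 in set 2. At 8 h it was at 189.8 and 157.6 in RelA-dTA1, 67.7 and 61.5 in RelA-dTAD and 49.2 and 46.4 in EV, where it had been at 70.1 and 72.9 before TNF. In RelA-WT, set 1 lay above set 2 at every time. At 8 h the RelA-WT and RelA-dTA1 libraries lay above those of RelA-dTAD, and these above those of EV. The change at 8 h was 1.33 ± 0.27 (adjusted p = 5.06e-04) in RelA-WT and 1.22 ± 0.26 (adjusted p = 8.28e-04) in RelA-dTA1. In EV it was -0.55 ± 0.27 (adjusted p = 0.102), with 0.00305 in the blocked fit, 0.0457 and 0.0424 without the set 1 or set 2 library of RelA-WT, and 4.54e-04 without a filter on low counts. The rises at 3 h passed only with the block or without that filter (0.0729 in RelA-WT and 0.103 in RelA-dTA1, blocked 3.80e-04 and 6.00e-04).

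Against RelA-WT the 8 h response of Lifr was lower, with a difference of -1.88 ± 0.38 (adjusted p = 0.00104) in EV and of -1.47 ± 0.38 (adjusted p = 0.0101) in RelA-dTAD. It was higher in RelA-dTA1 than in RelA-dTAD, 1.37 ± 0.37 (adjusted p = 0.0283). The RelA-dTAD difference from RelA-WT was lost without either library of RelA-dTAD (0.0938 and 0.062), and that from RelA-dTA1 without any 1 library of the 2 constructs (0.123 to 0.224). Across the 20 group means of log2 CPM, Lifr and Il6st correlated at 0.905, and across the 35 single libraries of the other constructs at 0.66. These points share libraries of the same 2 sets and are given as a description.

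Il6ra, which encodes the IL-6 binding subunit (ENSMUSG00000027947.9, mm10 chr3:89864059-89913196, minus strand), was called higher at 8 h in 3 of the 4 replicated constructs, and in all 4 with the set as a block. No difference in its response was called between constructs without that block. At 8 h it was at 29.9 and 16.8 CPM in EV (sets 1 and 2), 25.7 and 13.3 in RelA-WT, 24.5 and 17.3 in RelA-dTAD and 19.4 and 14.5 in RelA-dTA1, from 5.89 to 12.1 CPM over these constructs at 0 h. Set 1 lay above set 2 in each construct. The rise passed in EV, 1.44 ± 0.4 (adjusted p = 0.00435), RelA-WT, 1.34 ± 0.41 (adjusted p = 0.0158), and RelA-dTAD, 1.22 ± 0.39 (adjusted p = 0.0136), while RelA-dTA1 had 0.77 ± 0.39 (adjusted p = 0.132). The calls were lost without the set 1 library of EV (0.074), either library of RelA-WT (0.189 and 0.0677) or either of RelA-dTAD (0.0879 and 0.119). With the set as a block all 4 passed, RelA-dTA1 at 2.79e-06, and so did the 3 h rises in EV (0.00446), RelA-WT (4.61e-06) and RelA-dTA1 (0.00658). Without a filter on low counts, RelA-dTA1 at 8 h (0.0121) and RelA-WT at 3 h (0.00533) passed as well. At 8 h EV minus RelA-WT was 0.11 ± 0.57 (adjusted p = 0.945), within its error, and the 3 h difference of RelA-dTAD from RelA-WT, -0.72 ± 0.57 (adjusted p = 0.901), passed with the block (0.0181). An overlapping gene on the other strand, Gm42809, shares 242 exon bases with Il6ra and had 135 reads against 8607 of Il6ra over all libraries.

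The comparison of RelA-dTA1 with RelA-WT addresses the part of TA1, and the response of no member passed. Tests of levels are given only for Il6 and Il11. By the CPM given above, Il6 at 0.5 h and Lif at 0.5 and 1 h were lower in both RelA-dTA1 libraries than in both RelA-WT libraries. Osmr at 3 h and Il6st at 8 h were lower in the same way. Lif and Clcf1 at 8 h were higher in both RelA-dTA1 libraries. Of 32 tests in each direction, edgeR and DESeq2 called 0, and at an unadjusted p 2 were lower and 0 higher. Few genes passed at all here, 0.0146% lower at 0.5 h, 0% lower at 1, 3 and 8 h and 0% higher at all 4 times. The difference at 8 h was 0.65 ± 0.44 (adjusted p = 1) for Lif, 0.18 ± 0.13 (adjusted p = 1) for Osmr, -0.1 ± 0.37 (adjusted p = 1) for Lifr and -0.22 ± 0.13 (adjusted p = 1) for Il6st. At 0.5 h it was -2.19 ± 0.88 (adjusted p = 1) for Il6 and -1.17 ± 0.44 (adjusted p = 1) for Lif, the 2 tests with an unadjusted p under 0.05.

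The constructs with 1 library have no replicate check, and each is compared only with libraries of its own set. Ratios to another construct divide reads by unscaled library totals and carry a 95% interval for counting error only. The CPM are scaled by TMM, so the ratio of 2 CPM values can differ from the read ratio and lie outside its interval. RelA-DB and RelA-dCterm, as EV, had low early Lif and high late Lif. At 0.5 h Lif was at 6.23 CPM in RelA-DB and 9.68 in RelA-dCterm, with read ratios to RelA-WT of 0.156 (0.106 to 0.223) and 0.242 (0.172 to 0.335). The values at 8 h were 177.8 and 113.7 CPM, with read ratios of 5.71 (4.77 to 6.88) and 3.71 (3.08 to 4.5). Il6st at 8 h was at 674.2 and 737.4 CPM, with read ratios to RelA-WT of 0.427 (0.408 to 0.446) and 0.475 (0.455 to 0.495). Il6 at 8 h had 16 reads in RelA-DB and 9 in RelA-dCterm against 49 in RelA-WT and 7 in EV. Both constructs had 5 of 8 members (Il6, Lif, Il11, Clcf1 and Il6ra) at least 2-fold above 0 h at 8 h (log2 CPM with a prior count of 2), where 12.3% and 12.5% of 15090 genes were. Of these, Il11 rested on few reads, 2 at 0 h and 7 at 8 h in RelA-DB and 3 and 10 in RelA-dCterm. The intervals of its read ratio, 0.726 to 37.6 and 0.825 to 18.1, held 1. Rela itself was at 658.1 and 530.8 CPM in them at 0 h, below every other RelA construct, and its part in these values was not tested.

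RelA-TA2_CI, RelA-TA2_S467A and RelA-TA2_CI_S467A lay near RelA-WT in Il6st and Lifr, while early Lif differed among them. At 0.5 h Lif was at 37.8 CPM in RelA-TA2_S467A, with a read ratio to RelA-WT of 0.816 (0.73 to 0.913), but at 19.8 in RelA-TA2_CI and 18.4 in RelA-TA2_CI_S467A, with read ratios of 0.449 (0.388 to 0.519) and 0.411 (0.362 to 0.465). The values of the latter pair were close to the 20.3 CPM of RelA-dTA1 in the same set. Il6 at 0.5 h was at 5.29, 5.33 and 4.78 CPM in the 3 constructs in the order named first, with intervals of the ratio to RelA-WT that all held 1. Il6st at 8 h was at 1328, 1401 and 1322 CPM and Lifr at 146.3, 163.7 and 175.8, with read ratios to RelA-WT from 0.95 (0.891 to 1.01) to 1.13 (1.07 to 1.2). Late Lif was at 33.0, 32.2 and 50.1 CPM, with read ratios to RelA-WT of 1.16 (1.01 to 1.34), 1.17 (1.02 to 1.33) and 1.75 (1.54 to 1.99). At 8 h, 4, 5 and 5 of 8 members were at least 2-fold above 0 h, against 6.26%, 5.64% and 6.72% of genes.

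With TA1 deleted as well, RelA-TA2_CI-dTA1 and RelA-TA2_CI_S467A-dTA1 had high late Lif, and Il6st and Lifr at 8 h between the values of EV and RelA-WT. Lif was at 7.82 and 7.38 CPM at 0.5 h, with read ratios to RelA-WT of 0.17 (0.139 to 0.207) and 0.165 (0.136 to 0.2), and at 160.1 and 132.3 at 8 h, with read ratios of 5.55 (4.96 to 6.23) and 4.53 (4.05 to 5.08). Il6st at 8 h was at 856.8 and 916.4 CPM, with read ratios of 0.59 (0.576 to 0.604) and 0.623 (0.61 to 0.637) to RelA-WT and of 1.37 (1.33 to 1.42) and 1.45 (1.41 to 1.49) to EV. Against 0 h of the same construct, Il6st reads were at 0.977 (0.951 to 1.0) and 1.02 (0.994 to 1.04), or 1.1 and 1.15 with totals scaled by TMM. Lifr at 8 h was at 83.3 and 95.6 CPM, with read ratios of 0.533 (0.494 to 0.576) and 0.605 (0.565 to 0.647) to RelA-WT and of 1.81 (1.62 to 2.03) and 2.05 (1.84 to 2.28) to EV. Against 0 h of the same construct, Lifr reads were at 1.12 (1.03 to 1.23) and 1.04 (0.977 to 1.12), or 1.27 and 1.18 with scaled totals. Both genes thus lay between EV and RelA-WT of the set at 8 h by more than counting error. Il6 had read ratios to RelA-WT of 0.467 (0.318 to 0.676) and 0.308 (0.2 to 0.464) at 0.5 h and, at 6.98 and 7.96 CPM, of 1.04 (0.759 to 1.43) and 1.17 (0.882 to 1.56) at 8 h. At 8 h, 5 and 4 of 8 members were at least 2-fold above 0 h, against 8.81% and 7.55% of genes. Rela stood at 3831 and 3849 CPM in these libraries at 8 h, above RelA-WT, and its part in these values was not tested.

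**Figure D4:**
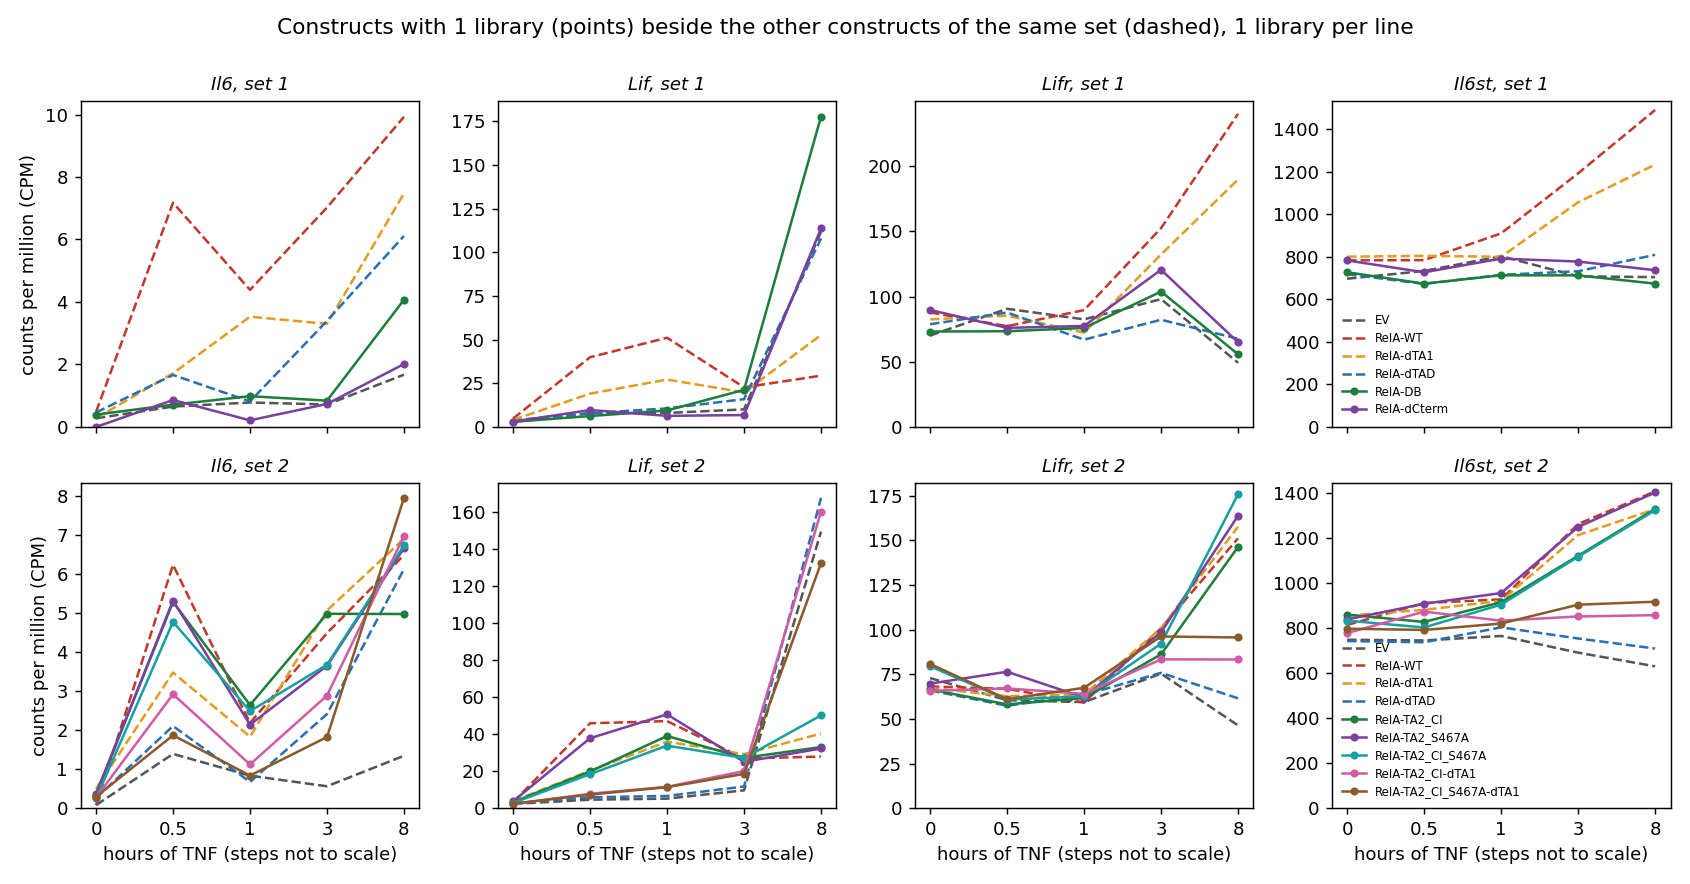
CPM of Il6, Lif, Lifr and Il6st against hours of TNF for the single-library constructs (points and solid lines) and the replicated constructs of the same set (dashed), set 1 above and set 2 below, 1 library per line. RelA-DB and RelA-dCterm lie below RelA-WT of set 1 in Lifr and Il6st at 8 h, and RelA-TA2_CI-dTA1 and RelA-TA2_CI_S467A-dTA1 reach 160.1 and 132.3 CPM of Lif at 8 h.

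Other genes of the pathway were taken from lists by their known roles. Of 19 genes of JAK-STAT and adaptor signalling, 11 rose and 0 fell in RelA-WT at 3 h (14 and 1 with the set as a block), beside 10.5% and 5.74% of all genes (16.9% and 14.1%). The median log2 change was 0.42 against -0.02 for all genes tested. The genes named from each list are those with the largest rises in RelA-WT at 3 h, a choice that favours a lower response in EV, so the differences from EV given for them are a description. Jak2, a kinase that gp130 receptors use, rose by 1.71 ± 0.17 (adjusted p = 3.45e-08) and Stat5a, a transcription factor of these pathways, by 1.66 ± 0.14 (8.02e-09). Of 10 inhibitors, 5 rose and 0 fell (5 and 1 with the block), among them Socs1, a feedback inhibitor of Janus kinases, by 1.67 ± 0.25 (2.32e-05) and the phosphatase gene Ptpn1 by 1.44 ± 0.12 (5.90e-09). In EV at 3 h the changes were 0.19 ± 0.16 for Jak2 (0.644), -0.16 ± 0.15 for Stat5a (0.674), 0.38 ± 0.26 for Socs1 (0.518) and 0.48 ± 0.12 for Ptpn1 (0.0231). The difference of responses, EV minus RelA-WT, was -1.52 ± 0.23 for Jak2 (1.42e-04), -1.82 ± 0.21 for Stat5a (3.55e-06), -1.29 ± 0.36 for Socs1 (0.0415) and -0.95 ± 0.17 for Ptpn1 (9.71e-04). Over the 19 signalling genes, 2 rose and 0 fell in EV at 3 h, beside 3.02% and 0.922% of all genes. With the set as a block 5 rose and 1 fell, beside 9.23% and 7%. At 8 h, EV responded less than RelA-WT in 8 of the 19 signalling genes and more in 1 (9 and 3 with the block), beside 7.9% and 9.67% of all genes.

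Of 24 tested genes known as STAT3 targets, 11 rose and 0 fell in RelA-WT at 3 h and 15 rose and 0 fell at 8 h, with medians of 0.45 and 0.94. With the block 14 rose and 1 fell at 3 h, and 19 rose and 2 fell at 8 h. Of all genes, 10.5% rose and 5.74% fell at 3 h, and 15.8% and 11.6% at 8 h, without the block. In EV, 15 rose and 0 fell at 8 h with a median of 1.15, beside 25.6% of all genes. In EV at 3 h 6 rose, beside 3.02% of all genes, and 10 with the set as a block, beside 9.23%. Bcl3, a nuclear NF-kB cofactor, rose in RelA-WT by 2.98 ± 0.42 at 3 h (adjusted p = 1.20e-05) and stood at 0.96 ± 0.48 in EV (0.313, blocked 0.0132). The kinase gene Pim1 rose by 2.11 ± 0.38 (2.59e-04) in RelA-WT at 3 h and stood at 0.08 ± 0.4 in EV (0.977). The difference at 3 h, EV minus RelA-WT, was -2.03 ± 0.55 for Pim1 (0.034) and -2.02 ± 0.64 for Bcl3 (0.0883, blocked 1.80e-05). At that time EV responded less in 4 of the 24 genes and more in 1 (7 and 2 with the block), beside 2.8% and 0.878% of all genes. Its response at 8 h was lower in 5 and higher in 6 (6 and 7 with the block), beside 7.9% and 9.67%.

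Among the family's other receptor subunits, 1 of 4 tested, Il11ra1, which encodes the IL-11 binding subunit, fell in RelA-WT at 3 h, by 0.46 ± 0.12 (adjusted p = 0.00869). At 8 h it fell by 1.54 ± 0.13 in EV (adjusted p = 6.50e-10) and by 0.85 ± 0.12 in RelA-WT (1.09e-05), a difference of responses of -0.7 ± 0.17 (0.00644). The ligand gene Osm had 2 reads over all 75 libraries, so its receptor gene Osmr was measured in cells with next to no reads of this ligand. Ctf1, which encodes the ligand cardiotrophin 1, was expressed at a median of 10.8 CPM.

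By the closest course over 20 group means of log2 CPM among 12731 genes, Il6 was most like Ccl7 (Pearson r = 0.917, and 0.905 over the 35 single libraries), Ch25h (0.906 and 0.871), Ncoa7 (0.874 and 0.855), Ccl2 (0.872 and 0.876) and Hspa1b (0.87 and 0.758). Lif was most like Rgs16 (0.953 and 0.922), Sdc4 (0.95 and 0.923), Rcan1 (0.945 and 0.955), Fosl1 (0.944 and 0.938) and Slc25a25 (0.935 and 0.92). Il6 and Lif correlated with each other at 0.798 and 0.829. The first value of each pair chose the gene, and the points share libraries and hours, so these are descriptions.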

How the data were processed

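Gene expression was read by RNA sequencing in 75 libraries. The deposited tables hold raw gene counts, which the authors made with cutadapt 1.9.1, STAR and featureCounts 1.5.0 on mm10, per the submitters' processing notes. Whether reads were counted by strand is not given in the sources used here. Members and gene lists were chosen with earlier results of these data known. All 8 members are named, with up to 4 genes per pathway list (the largest rises and falls in RelA-WT at 3 h) and the 5 genes most like Il6 and Lif. The 40 libraries of the replicated constructs were fitted in 1 model with edgeR 4.0.16 (TMM scaling, low counts filtered, quasi-likelihood test), and p-values were adjusted by Benjamini-Hochberg over 13665 genes at a threshold of 0.05. All adjusted p-values in the text come from that fit unless DESeq2 1.42.0 or a block is named. The SE beside a log2 value is the size of that value divided by the square root of the test's F statistic, and is approximate where reads are few. CPM were scaled by TMM over all 75 libraries, and log2 CPM used a prior count of 2. Replicate numbers pair libraries, since each number is a deposited set: same-set deviations correlated at 0.353 to 0.661 over 190 pairs of groups. The fit without a block does not use this pairing. With the block the common dispersion fell from 0.0224 to 0.0038. Tests of Il6 and Il11 levels between constructs were added after the data were seen. Constructs with 1 library got exact conditional binomial 95% intervals of read ratios, which cover counting error only. Alternatives were RLE scaling, no filter, DESeq2, the block and leaving out each replicate. The fit was also run on simulated counts with a fixed dispersion and no difference between sets, so that run does not check the pairing of libraries.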

Additional observations from a re-analysis of the deposited data

Results flagged for a closer look

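Responses that differed between constructs by the test of the difference itself (edgeR's quasi-likelihood test, log2 scale, adjusted p under 0.05) concern 5 of the 8 genes, and no explanation was tested. They share their RelA-WT or RelA-dTAD libraries. At 8 h, 9.67% of all genes responded more and 7.9% less in EV than in RelA-WT. For RelA-dTAD against RelA-WT these shares were 6.45% and 5.8%, and for RelA-dTA1 against RelA-dTAD 3.13% and 2.81%. The shares at the earlier hours were smaller.

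For the cytokine genes, EV minus RelA-WT was -2.49 at 0.5 h, -2.57 at 1 h and 2.62 at 8 h for Lif and 1.67 at 8 h for Clcf1. RelA-dTAD minus RelA-WT was -2.08 at 1 h and 2.79 at 8 h for Lif and 1.67 at 8 h for Clcf1. RelA-dTA1 minus RelA-dTAD at 8 h was -2.14 for Lif and -1.26 for Clcf1. Lif thus changed the sign of its difference between 1 and 8 h in EV and RelA-dTAD. Its early differences are the less certain ones. With the set as a block, those of EV at 0.5 h (blocked adjusted p = 0.27) and RelA-dTAD at 1 h (0.084) did not pass. All 3 early calls also depended on single libraries, as given with the results.

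For the receptor genes every called difference of EV or RelA-dTAD from RelA-WT was below 0. EV minus RelA-WT was -0.79 at 3 h and -0.73 at 8 h for Osmr, -0.66 at 3 h and -0.94 at 8 h for Il6st, and -1.88 at 8 h for Lifr. RelA-dTAD minus RelA-WT was -0.76 at 3 h for Osmr, -0.596 at 3 h and -0.78 at 8 h for Il6st, and -1.47 at 8 h for Lifr. RelA-dTA1 minus RelA-dTAD was 0.75 at 3 h and 0.52 at 8 h for Osmr, 0.56 at 8 h for Il6st and 1.37 at 8 h for Lifr.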

How the results depend on the processing

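Counts of member tests called higher after TNF (8 in EV, 15 in RelA-WT, 13 in RelA-dTA1 and 11 in RelA-dTAD of 32 each) ranged, with 1 replicate left out, from 5 to 8, 13 to 15, 9 to 13 and 5 to 11. Called lower in EV were 0, but 1 with the deposited set as a replicate block, 1 without a filter on low counts and 0 to 1 with a replicate left out, in each case Lifr at 8 h. Responses called lower in EV than in RelA-WT numbered 4 to 7 and higher 2 to 2 with a replicate left out. For RelA-dTAD against RelA-WT the ranges were 3 to 5 lower and 1 to 2 higher, and for RelA-dTA1 against RelA-dTAD 0 to 4 higher and 0 to 2 lower. The shares of all genes called in the main fit at the hours of these calls are given with the results above. RLE scaling moved no call of a member. DESeq2 ended 1, that of lower Il11 in RelA-dTA1 than in RelA-dTAD at 8 h, and at 0.5 h called 2 members in place of 1 higher in RelA-dTAD and 1 in place of 0 with a lower response in RelA-dTAD than in RelA-WT. Among the tests of the 8 genes, the replicate block changed no call other than those given beside the results. For the constructs with 1 library, scaling the totals by TMM moved 31 ratios to 0 h beyond their counting interval and left 188 within it. That of Il6st in RelA-TA2_CI-dTA1 at 8 h went from 0.977 to 1.1. Without scaling, the RPKM of Osmr and Il6st in RelA-WT at 0 h were 11.2 and 75.2. With few reads at 0 h, Il6 and Il11 give wide errors, and 2 libraries per group limit every test.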

Other observations

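Of 18 genes known to regulate Il6 transcription or its mRNA, 11 rose and 0 fell in RelA-WT at 1 h, with a median log2 change of 1.09 against 0.004 for all genes tested, and 11 rose at 3 h (13 with the set as a block) with a median of 0.84. Of all genes, 2.55% rose at 1 h and 10.5% at 3 h. In EV, whose libraries held less Il6, 7 rose at 1 h, 10 at 3 h (14 with the block) and 15 at 8 h, with medians of 0.51, 1.01 and 1.72, and 0 fell at these times. The shares of all genes that rose in EV were 0.768%, 3.02% and 25.6%. Atf3, which encodes a transcription factor induced by stress, rose at 3 h by 2.17 ± 0.36 in RelA-WT (adjusted p = 1.04e-04) and by 3.0 ± 0.37 in EV (1.90e-05). Cebpd, which encodes a C/EBP transcription factor, rose by 2.1 ± 0.22 in RelA-WT (1.17e-07) and by 0.99 ± 0.22 in EV (0.0106), a difference of responses of -1.11 ± 0.31 (0.0436). Both genes were named for their rise in RelA-WT at 3 h, so this difference is a description. At 1 h, EV responded less than RelA-WT in 4 of the 18 genes, which were Nfkbiz, Junb, Zc3h12a and Zfp36, and more in 0, beside 0.578% of all genes lower. At 8 h EV responded more in 7, among them the AP-1 genes Fos, Fosl1 and Jun, and less in 0 (11 and 0 with the block), beside 9.67% and 7.9% of all genes.

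Several other ligand genes of the family had few reads. Over all 75 libraries Il31 had 6 reads, Ctf2 8, Ebi3 46, Il27 81 and Cntf 111. Il27ra, Il31ra and Cntfr had medians of 1.19, 1.3 and 1.16 CPM. Cntfr, a receptor subunit gene for ciliary neurotrophic factor, rose in EV at 8 h by 1.64 ± 0.62 (adjusted p = 0.0324). Ctf1, which encodes cardiotrophin 1, fell by 0.99 ± 0.39 in RelA-dTAD at 8 h (0.0388).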
